A study of Mus musculus with 12 samples.

Results

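The BCL2 family sets the threshold at which mitochondria release the proteins that start the intrinsic cell death programme. Its pro-survival members (here Bcl2, Bcl2l1, Mcl1 and the Bcl2a1 copies) hold the pore-forming proteins BAX and BAK in check, and its BH3-only members (here Bcl2l11, Bbc3, Bmf and Pmaip1) bind and neutralise the pro-survival proteins. Follicular B cells depend on this balance: engaged antigen receptors can lead to survival and division or, without further help, to death. The 10 genes were chosen by symbol, 6 pro-survival and 4 BH3-only, among 24046 gene symbols in the count tables. All 10 were found, and 9 had enough counts to be tested alongside 12242 genes in all. Bcl2a1a, with 0 to 11 reads in any library, was not tested.

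Messenger RNA had been sequenced from follicular (FO) B cells sorted from mouse spleen. The groups were Jmjd1c KO cells after 2 h of anti-IgM, which engages the B cell receptor, Jmjd1c KO cells at 0 h, WT cells after 2 h of anti-IgM, and WT cells at 0 h, with 3 libraries each. Per the library names, 3 animals of each genotype each gave a 2 h and a 0 h library, and a batch number is shared between genotypes. Jmjd1c encodes a JmjC-domain protein of the histone H3 lysine 9 demethylase family. The series title names autoimmunity and HIT antibodies as its setting. How, in which cells and over which exons the gene was deleted, and the strain, age and state of the 0 h cells, remain not given in the sources used here.

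Library totals ran from 5666013 to 14153396 counts. Levels are in CPM, counts scaled to the same library total and by edgeR's TMM factors, and a count of 0 allows up to 3 counts, or 0.183 to 1.02 CPM depending on the library, which covers counting error only. Jmjd1c averaged 207 ± 7.30 CPM in KO and 296 ± 26.3 CPM in WT cells at 2 h, and 221 ± 21.5 CPM in KO and 325 ± 35.7 CPM in WT cells at 0 h (SD, n = 3 each). The genotypes did not overlap at either time, although Jmjd1c was not called (edgeR adjusted p = 0.887 at 2 h and 0.9999 at 0 h). All 6 B cell markers had counts in every group, with sums of 2367 to 3743 CPM in KO 2 h, 4470 to 5143 CPM in KO 0 h, 2229 to 3326 CPM in WT 2 h and 3948 to 5040 CPM in WT 0 h. Of the 6, 5 were called lower at 2 h in KO and 3 in WT (median log2 changes of -0.82 and -0.73), and their part in the changes over time was not tested. KO 2 h replicate 1 stood apart. The 45S ribosomal RNA row took 52.3% of its counts, the dividing-cell gene Mki67 reached 530 CPM, and 4 neutrophil genes summed to 510 CPM, against at most 24.8%, 138 CPM and 133 CPM in the other 11 libraries. Those next-highest values were all from WT 2 h replicate 1. The replicate 2 libraries had 12.9% to 15.5% in the 45S row and 67.2 to 97.15 CPM of Mki67. The remaining libraries had 0.42% to 1.09% and 8.81 to 14.5 CPM. Some alternatives left out both 2 h libraries of batch 1. Several results that rest on KO 2 h replicate 1 are given with and without it. In bulk RNA, fewer cells expressing a gene and less RNA per cell cannot be told apart.

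The Bcl2a1 copies, which encode the short-lived NF-kB-induced survival protein A1, are near-identical neighbours on mouse chromosome 9. In GRCm38.p6, Bcl2a1d lies at chr9:88723288-88731850 on the minus strand, and Bcl2a1a at chr9:88956920-88962416 and Bcl2a1b at chr9:89199273-89207838 on the plus strand. Their coding sequences are 516 bases each and differ at 12 positions over the 3 copies, with 1 identical run of 217 bases. Identity was 98.84% between Bcl2a1b and Bcl2a1d, 98.64% between Bcl2a1a and Bcl2a1d, and 97.87% between Bcl2a1a and Bcl2a1b. The first 120 coding bases (GENCODE M21 annotation) hold 7 of the 12 differences and are shown because reads over them can tell the copies apart. Capitals mark the positions at which at least 1 copy differs.
Bcl2a1a: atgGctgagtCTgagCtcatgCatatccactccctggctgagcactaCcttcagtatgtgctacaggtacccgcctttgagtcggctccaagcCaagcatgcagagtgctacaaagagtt
Bcl2a1b: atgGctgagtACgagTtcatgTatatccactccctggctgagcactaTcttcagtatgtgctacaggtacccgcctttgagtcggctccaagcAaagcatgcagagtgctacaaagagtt
Bcl2a1d: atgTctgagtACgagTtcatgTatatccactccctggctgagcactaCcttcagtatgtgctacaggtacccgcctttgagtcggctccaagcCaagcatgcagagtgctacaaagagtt
Of all 50-base stretches of each transcript, 57.6% in Bcl2a1b, 79.5% in Bcl2a1d and 69% in Bcl2a1a also occur in another copy. The counting rule for reads that match several copies was not given in the sources used here. Because of this the split between copies is uncertain, and the sum of the copies is given beside it. Bcl2a1b took 75.5% to 81.0% of the summed reads in every library.

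**Figure D1:**
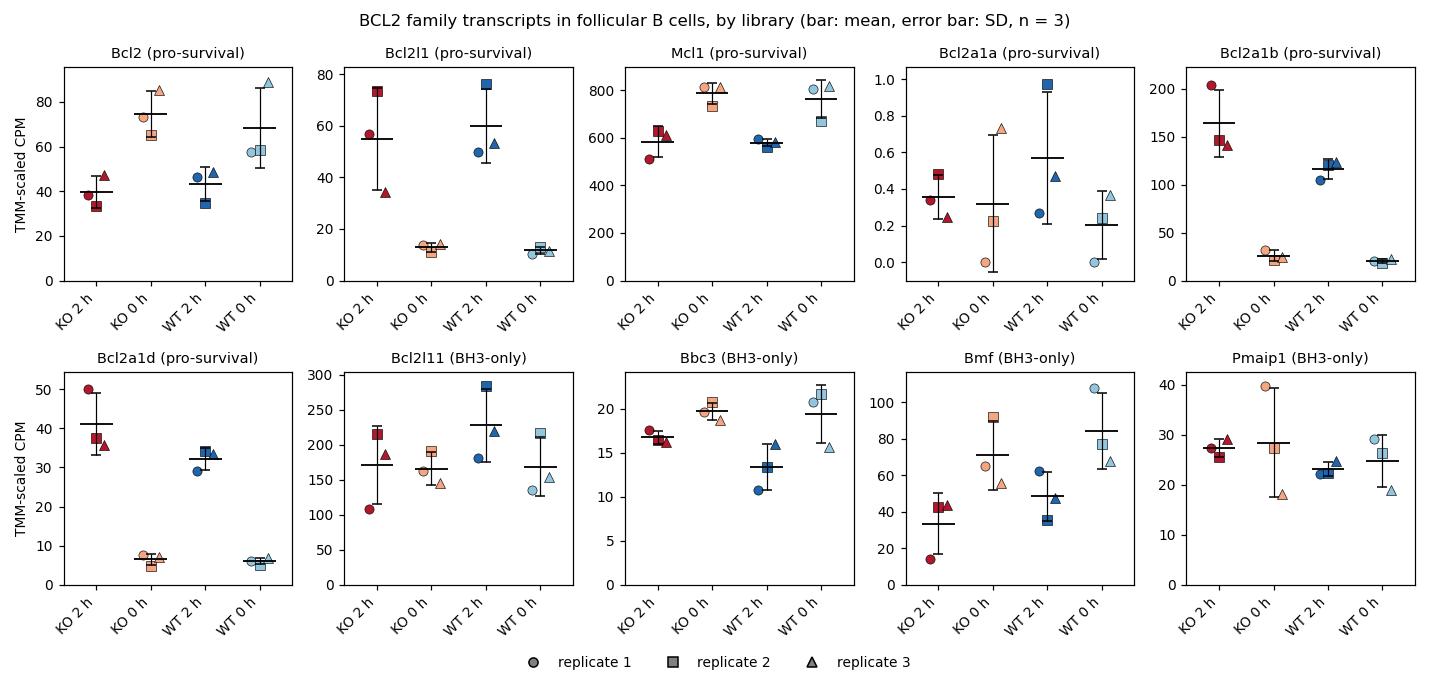
TMM-scaled CPM (vertical axes, linear, each from about 0) of the 10 BCL2 family genes in the 12 libraries, by group. Points are libraries, with shape for the replicate number, horizontal bars are means and error bars SD (n = 3); Bcl2a1b, Bcl2a1d and Bcl2l1 stand well above 0 h at 2 h in both genotypes, whereas Bcl2 and Mcl1 stand below it.

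After 2 h of anti-IgM the pro-survival genes moved in both directions, and in the same direction in KO and WT cells. Bcl2a1b, Bcl2a1d and Bcl2l1 rose 4.18- to 6.25-fold in KO and 5.12- to 5.73-fold in WT, whereas Bcl2 and Mcl1 fell. Of the 9 members tested, 5 were called in each genotype, 3 higher and 2 lower, all of them pro-survival, and 0 of the 4 BH3-only genes were called. At an edgeR unadjusted p under 0.05 there were 1 BH3-only gene in KO (Bmf) and 2 in WT (Bmf and Bbc3), all lower at 2 h. That threshold was passed by 39.5% of all tested genes in KO and 32.3% in WT. DESeq2 called 1 BH3-only gene in each genotype (Bmf in KO and Bbc3 in WT). Over all genes DESeq2 called 4023 in KO and 3058 in WT. Over all tested genes, 27.1% were called in KO (14.1% higher and 13% lower) and 19.8% in WT (10.7% higher and 9.06% lower), by edgeR's quasi-likelihood test at a Benjamini-Hochberg adjusted p below 0.05. The times did not overlap, in the higher direction, for 17.9% of tested genes in KO and 21.3% in WT, and in the lower direction for 19.6% and 22.7%. Without KO 2 h replicate 1 the pro-survival calls were 3 higher and 2 lower in each genotype as before. The BH3-only calls were then 0 in KO and 2 lower in WT (Bmf and Bbc3). Over all genes that fit called 3849 in KO and 3617 in WT, against 3316 and 2419 with every library. The median log2 change of the 5 tested pro-survival genes was 2.06 in KO and 2.36 in WT, that of the 4 BH3-only genes -0.14 and -0.31, and that of all tested genes 0.04 and 0.01. Bcl2a1b and Bcl2a1d count as 2 of the 5 in this median and in the calls. Their read split is uncertain, so they are not 2 separate measures. The summed copies changed by 2.64 in KO and 2.49 in WT. Beside them, Bcl2l1, Mcl1 and Bcl2 changed by 2.06, -0.43 and -0.91 in KO and by 2.36, -0.40 and -0.66 in WT.

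Bcl2a1b had 204.5, 147 and 141 CPM in the KO 2 h libraries, against 32.1, 21.7 and 24.4 CPM in KO 0 h. Its WT values were 105, 121 and 124 CPM at 2 h, against 19.9, 18.7 and 22.3 CPM at 0 h. The times did not overlap in either genotype, and every one of the 6 animals showed an increase, of 5.27- to 6.76-fold. The log2 change was 2.64 ± 0.18 in KO (SE, edgeR adjusted p = 1.93e-05) and 2.52 ± 0.18 in WT (adjusted p = 3.93e-05). By size of increase Bcl2a1b ranked 280 of 12242 genes in KO and 46 in WT. Without KO 2 h replicate 1, which had the highest value, the KO change was 2.46 (adjusted p = 1.003e-05).

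Bcl2a1d had 50.1, 37.5 and 35.7 CPM in KO 2 h libraries, against 7.58, 4.87 and 7.003 CPM in KO 0 h. WT libraries had 29.0, 34.2 and 33.4 CPM at 2 h, against 6.11, 5.19 and 6.90 CPM at 0 h. Its log2 change, 2.64 ± 0.20 in KO (edgeR adjusted p = 2.11e-05) and 2.40 ± 0.20 in WT (adjusted p = 5.83e-05), was close to that of Bcl2a1b, with which it shares most of its sequence. Summed, the 3 copies changed by 2.64 ± 0.18 in KO (adjusted p = 1.89e-05) and by 2.49 ± 0.18 in WT (adjusted p = 3.93e-05), so the increase does not depend on how reads were divided among them. Bcl2a1a contributed 1 to 4 reads per KO 2 h library, 0 to 11 in KO 0 h, 2 to 6 in WT 2 h and 0 to 6 in WT 0 h.

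Bcl2l1, which encodes BCL-XL, had 56.9, 73.4 and 34.3 CPM in KO 2 h libraries, against 13.7, 10.98 and 14.3 CPM in KO 0 h. The WT libraries held 49.8, 76.1 and 53.5 CPM at 2 h, against 10.4, 13.2 and 11.5 CPM at 0 h. All 2 h libraries lay above all 0 h libraries of their genotype. The size varied more between animals than for the Bcl2a1 copies, with 2.40- to 6.68-fold increases in KO and 4.66- to 5.78-fold in WT, the smallest being in KO animal 3. The log2 change was 2.06 ± 0.26 in KO (edgeR adjusted p = 3.06e-04) and 2.36 ± 0.26 in WT (adjusted p = 2.45e-04).

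Bcl2, the founding survival gene of the family, had 38.3, 33.4 and 47.5 CPM in KO 2 h libraries, against 73.4, 65.1 and 85.4 CPM in KO 0 h. Levels in WT were 46.3, 34.8 and 48.7 CPM at 2 h, against 57.5, 58.6 and 88.9 CPM at 0 h. It was lower at 2 h in 6 of 6 animals, with no overlap between times. Its log2 change was -0.91 ± 0.21 in KO (edgeR adjusted p = 0.00775) and -0.66 ± 0.20 in WT (adjusted p = 0.0411). The WT call was lost without WT 0 h replicate 3 (change -0.42, adjusted p = 0.190), WT 2 h replicate 1 (0.0702), 2 (0.171) or 3 (0.0642), and, through the shared spread, without KO 0 h replicate 1 (0.0607), 2 (0.0519) or 3 (0.05003). The KO call held without each library in turn.

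Mcl1, whose protein is needed for the survival of most B cell stages and turns over within minutes to hours, was the most abundant family transcript per length at 0 h. It had 511, 629 and 611 CPM in KO 2 h libraries, against 812, 735 and 813 CPM in KO 0 h. In WT cells it stood at 594, 562 and 583 CPM at 2 h, against 803, 672 and 817 CPM at 0 h. It was lower at 2 h in 6 of 6 animals and the times did not overlap, but the change was small, at -0.43 ± 0.13 in KO (edgeR adjusted p = 0.0283) and -0.40 ± 0.13 in WT (adjusted p = 0.0490). Neither call held when the animal was made a block (adjusted p = 0.0541 in KO and 0.0888 in WT). The KO call was also lost without KO 0 h replicate 1 (0.0901) or 3 (0.0870). The WT call was lost without any 1 of 9 libraries (adjusted p = 0.0592 to 0.172), namely each KO 0 h and each WT 2 h library, WT 0 h replicates 1 and 3, and KO 2 h replicate 3.

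**Figure D2:**
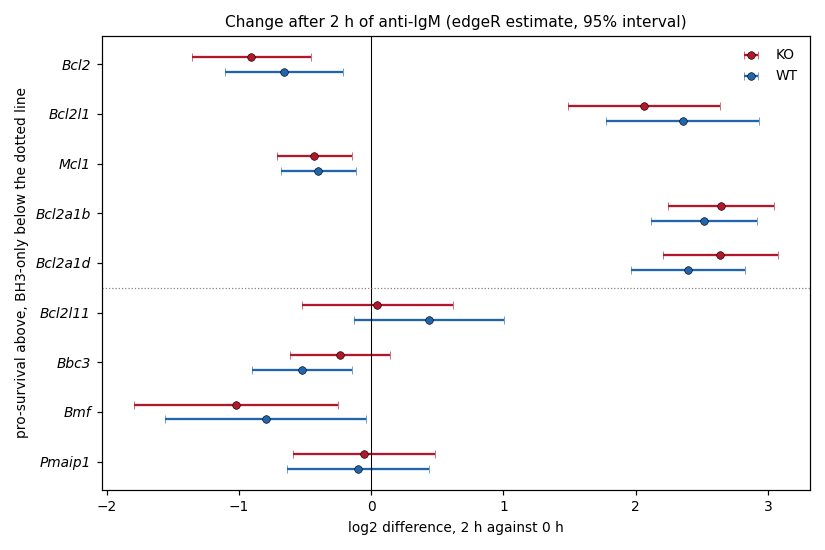
Log2 change after 2 h of anti-IgM (horizontal axis, edgeR estimate with its 95% interval) of the 9 tested members in KO and WT cells. The 3 induced pro-survival genes lie between 2.06 and 2.64, and the intervals of Bcl2l11 and Pmaip1 include 0 in both genotypes.

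Among the BH3-only genes, Bcl2l11 encodes BIM, a main killer of B cells after antigen receptor engagement. It had 109, 216 and 188 CPM in KO 2 h libraries, against 163, 191 and 145 CPM in KO 0 h. In WT it had 181, 284 and 220 CPM at 2 h, against 136, 217 and 154 CPM at 0 h. The times overlapped in both genotypes. Within animals it was higher at 2 h in 2 of 3 KO animals (1.13- and 1.29-fold), the exception being animal 1 (0.67-fold), whose 2 h library is the one that stood apart, and in 3 of 3 WT animals (1.31- to 1.43-fold). The log2 difference was 0.05 ± 0.26 in KO (edgeR adjusted p = 0.912; 95% interval -0.52 to 0.62) and 0.44 ± 0.26 in WT (adjusted p = 0.284; -0.13 to 1.01). Without KO 2 h replicate 1 the KO difference was 0.28 (edgeR adjusted p = 0.39). When batch was a block and both 2 h libraries of batch 1 were left out, the WT difference was called (0.48, edgeR adjusted p = 0.00342).

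Bmf encodes a BH3-only protein that is tied to the cytoskeleton in healthy cells. It had 14.2, 42.7 and 43.7 CPM in KO 2 h libraries, against 65.1, 91.8 and 55.8 CPM in KO 0 h. In WT it had 62.3, 35.6 and 47.3 CPM at 2 h, against 107.5, 77.0 and 68.1 CPM at 0 h. The times did not overlap in either genotype, which held for 37.5% of tested genes in KO and 43.9% in WT. The log2 difference of -1.02 ± 0.35 in KO lay just outside the threshold (edgeR adjusted p = 0.0502), and that in WT was -0.80 ± 0.35 (adjusted p = 0.136). The KO difference was called when the animal was made a block (-1.12, adjusted p = 0.02905), with DESeq2 (-1.07, 0.0127) and without KO 2 h replicate 3 (-1.24, 0.0403). Without KO 2 h replicate 1, its lowest library, the KO difference was -0.71 (0.0678) and the WT one was called (-0.80, 0.0272).

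Bbc3, the p53 target that encodes PUMA, had 17.6, 16.4 and 16.2 CPM in KO 2 h libraries, against 19.6, 20.7 and 18.7 CPM in KO 0 h. In WT it had 10.8, 13.4 and 16.0 CPM at 2 h, against 20.8, 21.7 and 15.6 CPM at 0 h. The times did not overlap in KO and overlapped in WT. The log2 difference was -0.24 ± 0.17 in KO (edgeR adjusted p = 0.320) and -0.52 ± 0.17 in WT (adjusted p = 0.0530). The WT difference was called with DESeq2 (adjusted p = 0.0414) and without WT 0 h replicate 3 (0.0333), KO 2 h replicate 1 (0.0367) or WT 2 h replicate 3 (0.0393). Pmaip1, which encodes NOXA, a BH3-only protein that binds MCL1, had 27.4, 25.5 and 29.2 CPM in KO 2 h libraries, against 39.9, 27.4 and 18.1 CPM in KO 0 h. In WT it had 22.2, 22.3 and 24.7 CPM at 2 h, against 29.1, 26.4 and 19.0 CPM at 0 h. The times overlapped, and the log2 differences were -0.05 ± 0.25 in KO (edgeR adjusted p = 0.897; 95% interval -0.59 to 0.49) and -0.10 ± 0.25 in WT (adjusted p = 0.829; -0.64 to 0.44).

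Set per length (CPM per kilobase of annotated exon), the makeup of the pro-survival group differed between times. At 2 h Bcl2a1b averaged 201 ± 42.9 in KO and 143 ± 12.6 in WT, beside Mcl1 at 171 ± 18.7 in KO and 170 ± 4.80 in WT (CPM per kilobase, SD, n = 3 each). At 0 h Mcl1 led with 230 ± 13.1 in KO and 224 ± 23.4 in WT, and Bcl2a1b followed at 31.9 ± 6.60 and 24.9 ± 2.26. Bcl2a1b and Mcl1 thus lay within their spread of each other in KO at 2 h, and apart in WT at 2 h and in both genotypes at 0 h. In KO 2 h replicates 1 to 3 Bcl2a1b had 250, 180 and 173, and Mcl1 149, 184 and 179 CPM per kilobase. Bcl2a1b was thus above Mcl1 only in replicate 1, the library that stood apart. Mcl1 made up 31.5% to 44.1% of the summed pro-survival level in KO 2 h libraries and 80.1% to 83.7% in KO 0 h. The 31.5% was from KO 2 h replicate 1, beside 43.1% and 44.1% in replicates 2 and 3. In WT it made up 44.0% to 49.4% at 2 h and 83.3% to 85.5% at 0 h. Bcl2a1d had 47.6 ± 9.09 at 2 h and 7.51 ± 1.65 at 0 h in KO, and 37.3 ± 3.20 and 7.03 ± 0.99 in WT.

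Below Mcl1 and Bcl2a1b, and above Bcl2a1d, came the BH3-only genes at 0 h, with Bcl2l11 at 20.7 ± 2.87 in KO and 21.0 ± 5.30 in WT, Bmf at 13.5 ± 3.56 and 16.0 ± 3.94, Pmaip1 at 10.4 ± 3.998 and 9.09 ± 1.91, and Bbc3 at 9.27 ± 0.47 and 9.13 ± 1.55 CPM per kilobase. Bcl2 had 8.15 ± 1.11 and 7.46 ± 1.95. From Pmaip1 down to Bcl2a1d the means differed from their neighbours by less than their SDs together in both genotypes. The same held for Bcl2a1b beside Bcl2l11 and for Bcl2l11 beside Bmf in WT but not in KO. Bcl2l1 had 11.96 ± 4.27 in KO and 13.04 ± 3.10 in WT at 2 h, above Bcl2, which had 4.34 ± 0.78 and 4.73 ± 0.81. At 0 h Bcl2l1 was the lowest of the tested members, with 2.83 ± 0.38 in KO and 2.55 ± 0.30 in WT.

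The summed pro-survival level divided by the summed BH3-only level, a ratio that does not depend on library scaling, was 13.7, 8.20 and 8.11 in KO 2 h libraries, against 5.25, 4.21 and 6.56 in KO 0 h. In WT it was 7.40, 6.59 and 7.14 at 2 h, against 4.76, 3.82 and 6.17 at 0 h. It was higher at 2 h in 6 of 6 animals, and the times did not overlap in either genotype. No test was made of it, since its members were chosen with results known. Leaving Mcl1 out, the ratio was 4.54 to 9.40 in KO 2 h and 0.69 to 1.16 in KO 0 h. In WT without Mcl1 it was 3.69 to 3.92 at 2 h and 0.63 to 1.03 at 0 h. Both highest KO 2 h values, 13.7 and 9.40, were from replicate 1, the library that stood apart. Without Mcl1, KO 2 h replicates 2 and 3 had 4.67 and 4.54. The summed level of the 4 chosen BH3-only members itself overlapped between times, at 34.6 to 52.1 in KO 2 h, 44.1 to 61.0 in KO 0 h, 47.6 to 56.7 in WT 2 h and 46.5 to 61.5 CPM per kilobase in WT 0 h. That sum leaves out Bid, a BH3-only gene called higher at 2 h in both genotypes. Bid averaged 23.0 at 2 h and 10.7 at 0 h in KO, and 20.3 and 10.5 CPM per kilobase in WT. Bad, also outside the sum, averaged 3.66 and 3.80 in KO and 2.85 and 3.61 in WT. The ratio with Bid was not computed, so whether the times would stay apart with Bid in the sum is not known. These are transcript levels, and the absolute ratio depends on the exon length assigned to each gene.

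**Figure D3:**
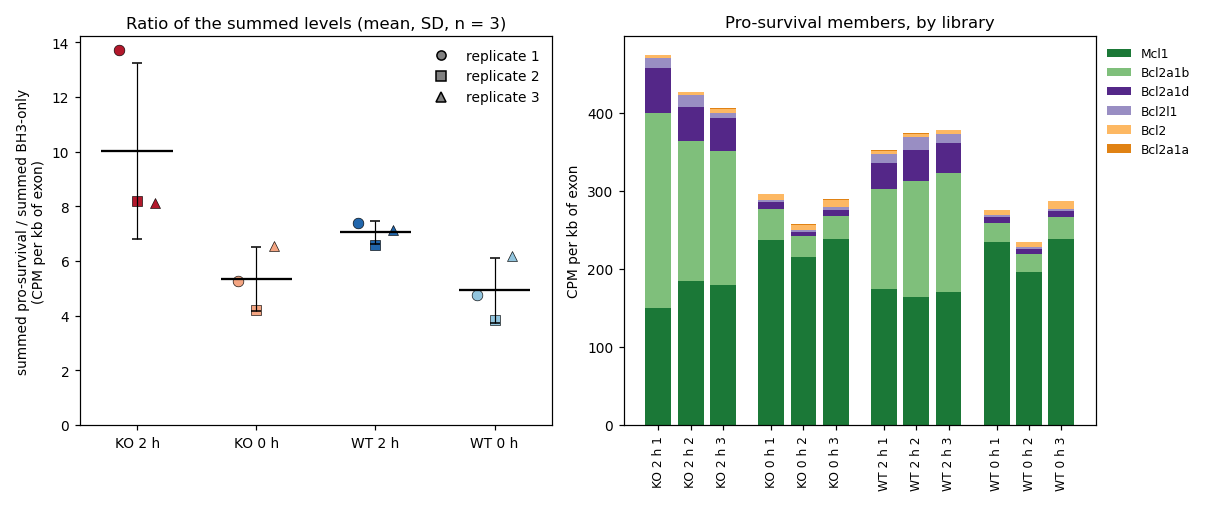
Left, summed pro-survival over summed BH3-only level (ratio of CPM per kilobase of exon) by library, with mean and SD (n = 3); right, the pro-survival members stacked by library in CPM per kilobase of exon. At 2 h the ratio ran from 8.11 to 13.7 in KO, the 13.7 being replicate 1, and from 6.59 to 7.40 in WT. The Bcl2a1b segment is taller at 2 h than at 0 h in every animal.

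Between genotypes, 0 of the 9 tested members were called at 2 h, at 0 h or in the difference between the responses, as were 0 genes of all 12242 (0% in each comparison) by edgeR. At an unadjusted p under 0.05 there were 1, 0 and 0 members, and 640, 91 and 40 of all genes. DESeq2 called 2 genes at 2 h, 1 at 0 h and 0 in the difference between responses, none of them a member. At 2 h, 4 members (Bcl2a1b, Bcl2a1d, Bbc3 and Pmaip1) were higher in every KO than in any WT library, an arrangement found in 4.62% of tested genes (3.6% were lower in every KO library, 8.22% in either direction). Bcl2a1b and Bcl2a1d share most of their sequence and are not 2 separate cases. Bbc3 had 16.2 CPM in its lowest KO and 16.0 CPM in its highest WT library. The Bcl2a1d difference was 0.34 with all libraries and 0.185 without KO 2 h replicate 1. At 0 h the genotypes overlapped for all 9 tested members, and 5.85% of tested genes did not overlap (2.95% higher and 2.9% lower in KO).

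Bcl2a1b had the smallest unadjusted p of the members, at 2 h. Its mean was 164 ± 35.1 CPM in KO and 117 ± 10.3 CPM in WT, a log2 difference of 0.49 ± 0.17 (edgeR unadjusted p = 0.0156, adjusted p = 0.887). Within batches the KO over WT difference was 0.96, 0.28 and 0.18 on the log2 scale in batches 1 to 3. Without KO 2 h replicate 1 it was 0.30 (adjusted p = 0.999). That library also carried the highest sum of the neutrophil genes S100a8, S100a9, Mpo and Elane, 510 CPM against 10.9 to 133 CPM in the other 11 libraries, and neutrophils express Bcl2a1 copies too. The part of neutrophil RNA in this result was not tested. At 0 h Bcl2a1b had 26.1 ± 5.39 CPM in KO and 20.3 ± 1.85 CPM in WT, with differences of 0.69, 0.22 and 0.13 in batches 1 to 3. Summed over the copies the difference was 0.46 ± 0.17 at 2 h (adjusted p = 0.888) and 0.31 ± 0.18 at 0 h (adjusted p = 0.9999).

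The BH3-only genes did not share a direction between genotypes. At 2 h Bbc3 differed by 0.31 ± 0.18 (batches 0.71, 0.29 and 0.02) and Pmaip1 by 0.24 ± 0.25 (0.30, 0.19 and 0.24), each higher in KO in 3 of 3 batches. Bcl2l11 differed by -0.41 ± 0.26, lower in KO in 3 of 3 batches (-0.73, -0.39 and -0.23). Bmf differed by -0.48 ± 0.35, with batches at -2.13, 0.26 and -0.11. The adjusted p was 0.887 to 0.888 for these 4 genes at 2 h. Without KO 2 h replicate 1 the differences were -0.177 for Bcl2l11, -0.166 for Bmf, 0.275 for Bbc3 and 0.245 for Pmaip1 (edgeR adjusted p = 0.999 each). The 95% interval of Bcl2l11 ran from -0.98 to 0.16 and that of Bmf from -1.25 to 0.30. Differences within these bounds, no difference among them, remain compatible with the data. For Mcl1 the interval was narrow, -0.27 to 0.29 at 2 h and -0.24 to 0.32 at 0 h. The change over time differed between KO and WT by -0.39 ± 0.37 for Bcl2l11, -0.29 ± 0.36 for Bcl2l1, -0.25 ± 0.29 for Bcl2 and 0.13 ± 0.25 for Bcl2a1b (adjusted p = 0.9999 each). Without KO 2 h replicate 1 these values were -0.16, -0.33, -0.22 and -0.057.

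**Figure D4:**
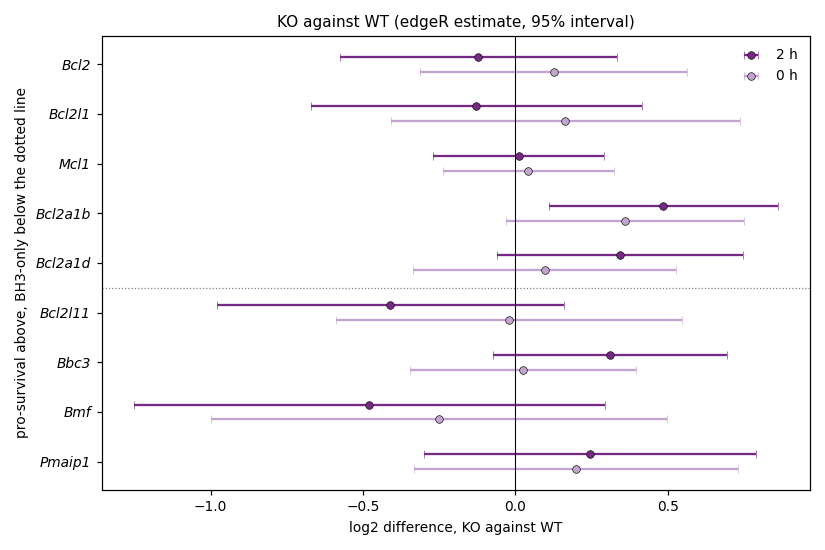
KO against WT log2 difference (horizontal axis, edgeR estimate with its 95% interval) of the 9 tested members at 2 h and at 0 h. Every interval except that of Bcl2a1b at 2 h (0.11 to 0.86) includes 0, and no difference passed the adjusted threshold.

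Of 16 other BCL2 family genes, 9 were tested, and 2 rose and 1 fell in each genotype, beside 27.1% of all tested genes called in KO and 19.8% in WT. Bax, the pore former, rose to 118 ± 3.65 CPM in KO 2 h cells, against 67.1 ± 9.25 in KO 0 h, and to 101 ± 12.7 in WT 2 h, against 65.0 ± 5.74 in WT 0 h (log2 changes of 0.82 ± 0.13 and 0.64 ± 0.13, edgeR adjusted p = 0.00112 and 0.00575). Bid, a BH3-only gene whose protein is cut by caspase 8, rose by 1.11 ± 0.14 in KO and 0.95 ± 0.14 in WT (adjusted p = 2.64e-04 and 8.42e-04). Bnip3l, a mitophagy receptor with a BH3-like stretch, fell by 0.72 and 0.65 (adjusted p = 0.00729 and 0.0138). Bak1, the second pore former, differed by 0.07 and -0.11, and Bad by -0.12 and -0.34, and neither was called (Bad was called lower in KO without KO 2 h replicate 1).

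Among 19 genes of caspases, the apoptosome and the inhibitors of apoptosis (IAPs), 3 rose and 6 fell in KO, and 3 rose and 5 fell in WT, where 13% of all tested genes fell in KO and 9.06% in WT. Without KO 2 h replicate 1, 3 rose and 7 fell in each genotype. That fit called more genes of any kind, 3849 in KO and 3617 in WT, against 3316 and 2419 with every library. The initiator caspase gene Casp2 had 77.5 ± 18.9 CPM at 2 h and 145 ± 2.55 CPM at 0 h in KO, and 90.5 ± 8.17 and 152 ± 6.85 CPM in WT (log2 changes of -0.89 and -0.74, edgeR adjusted p = 0.00143 and 0.00516). Birc2, which encodes the ubiquitin ligase cIAP1, fell by 0.56 in both genotypes (adjusted p = 0.00348 in KO and 0.00479 in WT). Cycs (cytochrome c) rose by 0.94 in KO and 0.76 in WT, and Endog, a mitochondrial nuclease, by 0.80 and 0.55. The apoptosome genes Apaf1 and Casp9 and the death receptor caspase Casp8, singled out after their values were seen, fell by 0.51, 0.87 and 0.92 in KO and by 0.60, 0.89 and 0.93 in WT. The list's median change was -0.27 in KO and -0.21 in WT, beside 0.04 and 0.01 over all tested genes. Of 10 death receptor pathway genes 0 were called in either genotype. An edgeR unadjusted p under 0.05 was found for 2 in KO (Fas and Tnfrsf10b) and 0 in WT, against 39.5% and 32.3% of all tested genes. DESeq2 called 0 of the 10 in either genotype, and without KO 2 h replicate 1 edgeR called Tnfrsf10b lower in KO.

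**Figure D5:**
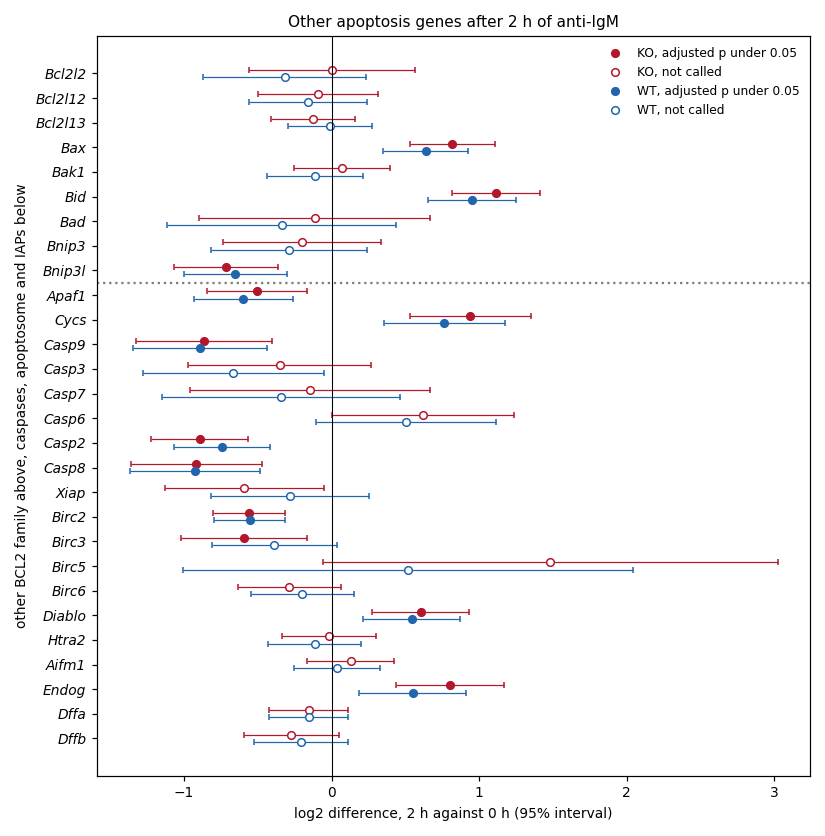
Log2 change after 2 h of anti-IgM (horizontal axis, edgeR estimate with its 95% interval) of the tested other BCL2 family genes and of the 19 caspase, apoptosome and IAP genes, in KO and WT. Filled points passed an adjusted p of 0.05; Bax, Bid, Cycs, Diablo and Endog lie to the right in both genotypes, whereas Casp2, Casp8, Casp9, Apaf1, Birc2 and Bnip3l lie to the left.

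Of 12 transcription factor genes known to act on the family, 3 rose and 1 fell in each genotype, again beside 27.1% of all tested genes called in KO and 19.8% in WT. Foxo1, one of the FOXO factors that can activate Bcl2l11, had 179.5 ± 33.0 CPM at 2 h and 361.5 ± 22.2 CPM at 0 h in KO, and 194 ± 27.4 and 345 ± 11.1 CPM in WT (log2 changes of -1.01 and -0.83, edgeR adjusted p = 8.08e-04 and 0.00307). Ddit3 and Atf4, stress-response factors, rose by 1.25 and 0.55 in KO and by 1.01 and 0.56 in WT. Stat5a, which acts downstream of cytokine receptors, rose by 0.99 in KO and 0.93 in WT. Without KO 2 h replicate 1 the calls numbered 6 higher and 1 lower in KO and 7 higher and 1 lower in WT, the added genes, named after their values were seen, encoding NF-kB subunits (Rel, Relb and Nfkb1 in both, Nfkb2 in WT). The calls over all genes then numbered 3849 in KO and 3617 in WT, against 3316 and 2419 with every library. With all libraries the difference of Rel, the c-Rel gene, was 0.93 ± 0.43 in KO (adjusted p = 0.127) and 1.25 ± 0.43 in WT (adjusted p = 0.0613), and DESeq2 called Rel and Nfkb1 higher in WT but not in KO. Of 8 genes that act on MCL1 protein stability, 7 were tested, of which 2 fell in KO and 3 in WT, with the all-gene shares of 13% and 9.06% lower beside them. Gsk3b, a kinase that marks MCL1 for degradation, fell by 0.77 in KO and 0.70 in WT (adjusted p = 2.75e-04 and 6.61e-04), and the ubiquitin ligase subunit Fbxw7 by 0.38 and 0.44 (adjusted p = 0.0344 and 0.0213). For Dusp6, a phosphatase of ERK, the difference was -0.53 in KO (adjusted p = 0.0789), and it fell by 0.78 in WT (adjusted p = 0.0212). Dusp6 was called lower in KO too without KO 2 h replicate 1. No gene of these lists was called between genotypes by edgeR or DESeq2.

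The promoter windows (250 bases before to 50 after a start, RefSeq, GRCm38.p6) of 9 members, 16 windows in all, were searched on both strands for the NF-kB site known as kappaB and for the FOXO site TGTTTAC. A kappaB match occurred in 1 of 3 windows of Bcl2l1, Bbc3 and Bmf each, and in 8.46% of 32851 mouse windows. The FOXO site occurred in 1 of 2 windows of Bcl2l11 and 1 of 3 of Bbc3, and in 3.65% of all windows. The windows of Bcl2, Mcl1 and the 3 Bcl2a1 copies held neither set of letters. The windows of Bcl2l1, a gene that rose (chr2:152830668-152830967, minus strand, kappaB match in capitals), and of Bcl2l11, which was not called (chr2:128125788-128126087, plus strand, FOXO match in capitals as its reverse complement), are shown as an induced and an uncalled member, 1 for each site. No window of a member held both sites.
Bcl2l1: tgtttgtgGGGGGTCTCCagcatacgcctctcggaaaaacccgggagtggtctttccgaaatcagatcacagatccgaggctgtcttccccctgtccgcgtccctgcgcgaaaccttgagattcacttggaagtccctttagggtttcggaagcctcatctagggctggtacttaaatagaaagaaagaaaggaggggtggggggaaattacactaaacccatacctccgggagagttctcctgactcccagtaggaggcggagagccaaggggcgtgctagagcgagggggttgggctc
Bcl2l11: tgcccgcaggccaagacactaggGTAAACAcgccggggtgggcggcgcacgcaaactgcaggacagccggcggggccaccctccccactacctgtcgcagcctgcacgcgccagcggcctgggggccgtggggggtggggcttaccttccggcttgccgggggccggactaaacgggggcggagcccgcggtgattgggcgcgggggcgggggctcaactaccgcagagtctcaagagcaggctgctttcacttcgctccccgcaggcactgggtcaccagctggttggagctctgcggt
These matches describe the letters in the windows and do not show that a factor bound there.

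The genes whose log2 CPM most resembled that of a member over the 12 libraries were Cdk5r1, Noa1 and Hsp90ab1 for Bcl2l1 (Pearson r of 0.98 each), Pde2a, Kctd3 and Usp3 for Mcl1 (0.97, 0.96 and 0.96), and Cd79a, Mblac2 and Aldh3a2 for Bcl2 (0.98, 0.98 and 0.97), among 8178 genes compared. For Bcl2l11 they were Cry2, Ncoa5 and Phrf1 (0.94, 0.93 and 0.93). The libraries fall into 2 times and share animals, so a change with time shared by 2 genes is enough for a high r.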

How the data were processed

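Per the labels' protocols, poly(A) RNA was made into NEBNext Ultra libraries. Reads were aligned with STAR to mm10, per the submitters' processing notes. The STAR version, counting tool, strand setting, treatment of multi-mapping reads and annotation were not given in the sources used here. Antisense or overlapping genes cannot be told apart. The deposited values are raw counts per gene symbol, 1 library per file, not normalized by the authors. The library names carry a number shared by both times, read here as the animal.

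Counts of 12 libraries were fitted in R 4.3.3 with edgeR 4.0.16 (TMM factors, filterByExpr, quasi-likelihood F test, 4 group means, two-sided, Benjamini-Hochberg over 12242 genes). Calls needed an adjusted p under 0.05. DESeq2 1.42.0 was an alternative. Rn45s was kept in library sizes. Levels per kilobase used the union of exons in GENCODE M21 (GRCm38). The fit was tried on simulated counts that had no batch, no shared animals and no library that stood apart. That trial therefore does not cover these features of the data. The members and lists were chosen with earlier results of these data known. All 10 members were named, as were other BCL2 family genes, and at most 4 genes of each further list by smallest p. Apaf1, Casp8, Casp9, Diablo, Rel, Relb, Nfkb1 and Nfkb2 were named beyond this rule, after their values were seen. The labels give a batch number shared by both genotypes and, through library names, the animal shared by both times. Same-number libraries deviated from their group means together to differing degrees (correlation -0.40 to 0.85, against -0.77 to 0.62 for different numbers). The 0.85 was between libraries of different animals. Libraries of the same animal had correlations of -0.4 to 0.6, within the range for different numbers. Comparisons within animals are to be read with this limit. Blocked fits were alternatives. Other alternatives were RLE factors, other filters, Rn45s left out, only the groups compared, and each library left out. The markers Ighd, Trbc2, Ly6g, Adgre1 and Jchain were not analysed here.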

Additional observations from a re-analysis of the deposited data

How the results depend on the processing

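The increases of Bcl2a1b, Bcl2a1d and Bcl2l1 passed the threshold in both genotypes under every alternative run, with log2 changes of 1.77 to 2.82 in KO and 2.15 to 2.62 in WT. The decrease of Bcl2 did so in KO (-1.07 to -0.79), and in WT was lost without the filter on low counts (adjusted p = 0.0502). That of Mcl1 was lost without the filter (adjusted p = 0.0982 in KO and 0.176 in WT) and in KO with only the groups compared (0.130). Members called in WT then numbered 3 without the filter. Leaving out 1 library gave 4 to 6 members in KO and 3 to 7 in WT, the 7 being without KO 2 h replicate 1 and including Bbc3 and Bmf. Over all genes, leaving out 1 library gave 2251 to 3849 calls in KO and 1278 to 3617 in WT, and 0 between genotypes in each comparison. When batch was a block and both 2 h libraries of batch 1 were left out there were 5514 in KO, of which 3241 were among the 3316, and 5205 in WT, of which 2411 were among the 2419. With only the groups compared there were 1735 in KO. Between genotypes that blocked fit called 2 genes at 2 h and 5 at 0 h, and DESeq2 called 2 and 1. Members called between genotypes stayed at 0. The cause of these shifts was not tested.

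Some uncalled differences near 0 turned sign. With a batch block, Pmaip1 in KO over time was 0.017 and Bcl2l11 between genotypes at 0 h 0.01, and with the animal as a block Pmaip1 in KO was 0.039. In the blocked fit without both 2 h libraries of batch 1, Pmaip1 over time was 0.20 in KO and 0.15 in WT. Without those libraries, with and without the block, Bmf between genotypes at 2 h was 0.034 and 0.055, and the differences between responses were 0.077 and 0.078 for Mcl1, -0.11 and -0.12 for Bcl2a1b, and 0.28 and 0.31 for Bmf. Mcl1 between genotypes at 2 h was -0.002 without the filter. Beyond 1 library left out, Bmf was called lower in KO also with RLE factors, either other filter, Rn45s left out, and without both 2 h libraries of batch 1 with and without the block, in all under 9 of 23 alternatives. In WT it was called under 4, and Bbc3 in WT under 5. The block changed no other call than those named here and beside the results. No animal block is possible between genotypes, since each animal has 1.

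Leaving out 1 library also turned sign for Bcl2l11 in KO over time (-0.16 to 0.28), Pmaip1 over time (-0.30 to 0.27 in KO and -0.26 to 0.033 in WT), and between genotypes at 0 h for Bbc3 (-0.11 to 0.11), Bcl2a1d (-0.027 to 0.26), Bcl2l11 (-0.16 to 0.20), Mcl1 (-0.043 to 0.093) and Pmaip1 (-0.13 to 0.44). At 2 h it did so for Bcl2l1 (-0.42 to 0.13) and Mcl1 (-0.05 to 0.099), and between responses for Bcl2a1b (-0.057 to 0.30), Bmf (-0.45 to 0.087), Mcl1 (-0.092 to 0.056) and Pmaip1 (-0.20 to 0.37). With the length of the longest coding transcript, an alternative added after seeing the data, the pro-survival over BH3-only ratio averaged 7.80 in KO 2 h, 4.20 in KO 0 h, 5.33 in WT 2 h and 3.86 in WT 0 h, against 10.0, 5.34, 7.04 and 4.92. By library the WT ratio with these lengths was 4.87 to 5.71 at 2 h, against 2.94 to 4.79 at 0 h. In KO it was 6.23 to 10.9 at 2 h, against 3.3 to 5.1 at 0 h. The depth of KO 2 h replicate 1, whose 3-count limit is 1.02 CPM, limits the lowest gene, Bcl2a1a.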
